A study of Homo sapiens with 12 samples.

Results

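The FKBP immunophilins are the protein family through which rapamycin enters cells' signalling, and 10 of their genes are described here in melanoma cells that received etoposide with or without rapamycin. The family was taken up with earlier results of these data known, and its rows were then found by name (FKBP1A, FKBP1B, FKBP2, FKBP3, FKBP4, FKBP5, FKBP9, FKBP10, FKBP11 and FKBP14), which make up 10 of the 58307 rows of the count table that name a gene. Each symbol had 1 row, and all 10 passed the filter on low counts in every comparison. The cells were A375 and SK-MEL-28, established human malignant melanoma lines grown in serum-supplemented medium. The cells of all 12 libraries received etoposide, a poison of topoisomerase II. Those of 6 libraries also received rapamycin, an inhibitor of mTOR that is used to induce autophagy. The groups were A375 etoposide, A375 etoposide + rapamycin, SK-MEL-28 etoposide and SK-MEL-28 etoposide + rapamycin, with 3 libraries each, so every comparison with rapamycin was made on an etoposide background. Doses and exposure times of the sequenced cultures are not given in the sources used here. Libraries held 28189501 to 32499337 counts in rows that name a gene. The labels number the libraries of a group and the study's methods call them biological replicates, without saying how the cultures were kept apart, so p-values measure the spread between these libraries.

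FKBP proteins carry a fold that binds rapamycin and FK506 and that, in most members, turns the peptide bond before proline. The cytosolic member FKBP12, the product of FKBP1A, is the main receptor of rapamycin, and the pair then binds and inhibits mTOR complex 1. Other members sit in the nucleus, bind HSP90 through tetratricopeptide repeats, or fold secreted proteins such as collagen in the endoplasmic reticulum (ER).

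In the GRCh38 annotation of GENCODE, FKBP1A lies at chr20:1368977-1393164 on the minus strand and FKBP1B at chr2:24049701-24063681 on the plus strand. FKBP3 is at chr14:45115599-45135319 (minus), FKBP4 at chr12:2794970-2805423 (plus) and FKBP5 at chr6:35573585-35728583 (minus). Of the ER members, FKBP2 is at chr11:64241003-64244132 (plus), FKBP9 at chr7:32957404-33006930 (plus), FKBP10 at chr17:41812680-41823213 (plus), FKBP11 at chr12:48921518-48926474 (minus) and FKBP14 at chr7:30010587-30026702 (minus). The counts cover whole genes, exons with their untranslated parts included. FKBP1A, FKBP1B and FKBP11 shared their assembled locus with other gene names, SDCBP2 (34 to 80 counts per library), MFSD2B (0 to 27 counts) and ARF3 (7835 to 10765 counts) among them. How reads were divided between such names is not given in the sources used here. The near-identical copies FKBP1C and FKBP9P1 held 31 to 52 and 9 to 25 counts, far below the 14890 to 17852 counts of FKBP1A and the 2295 to 3574 counts of FKBP9.

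A few upstream stretches are shown, because the ER members that fell with rapamycin did so beside ER chaperone genes that are known targets of the unfolded protein response. They come from the RefSeq promoter table (GRCh38.p14, 250 bases before each start, 7 of the 10 FKBP genes matched, FKBP4, FKBP10 and FKBP14 not), read 5′ to 3′ along the gene and ended at the first annotated exon. FKBP1A is shown as the gene of the drug's receptor, FKBP9 as an ER member that fell, and HSPA5, the gene of the ER chaperone BiP, for comparison. Capitals mark CCAAT boxes (the letters CCAAT on either strand) and, in HSPA5, the ER stress response element (ERSE, CCAAT, 9 bases of any kind, then CCACG).
FKBP1A, chr20:1393165-1393304, minus strand: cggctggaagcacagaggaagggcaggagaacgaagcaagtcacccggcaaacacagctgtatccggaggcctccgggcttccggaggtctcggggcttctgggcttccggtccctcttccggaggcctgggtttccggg
FKBP9, chr7:32957190-32957403, plus strand: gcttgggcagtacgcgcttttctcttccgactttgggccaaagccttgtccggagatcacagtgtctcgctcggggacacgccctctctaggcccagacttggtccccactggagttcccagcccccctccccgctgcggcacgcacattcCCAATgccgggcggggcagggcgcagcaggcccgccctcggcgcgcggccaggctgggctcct
HSPA5, chr9:125241383-125241593, minus strand: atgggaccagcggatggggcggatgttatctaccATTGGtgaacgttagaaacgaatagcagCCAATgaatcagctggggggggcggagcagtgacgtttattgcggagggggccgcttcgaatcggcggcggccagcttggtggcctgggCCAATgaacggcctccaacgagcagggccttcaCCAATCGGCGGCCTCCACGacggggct
Distances are counted from the RefSeq start, which lies beyond the printed end. Of the 250 bases, 214 are printed for FKBP9 and 211 for HSPA5. The CCAAT box of FKBP9 begins 99 bases before that gene's RefSeq start. The ERSE of HSPA5 begins 66 bases before the RefSeq start of HSPA5 and contains a CCAAT box. Over the full 250 bases and both strands, a CCAAT box occurred in 6 of the 13 windows of the matched FKBP genes, against 32% of the 35116 windows of the table. Counted by gene, with any of its windows, it occurred in 5 of the 7 (FKBP1B, FKBP2, FKBP3, FKBP5 and FKBP9), in 18 of 19 matched genes of an unfolded protein response list, and in 37% of the 27305 genes of the table. An ERSE occurred in none of the 7, in 6 of the 19 (CALR, CRELD2, HSP90B1, HSPA5, PDIA6 and XBP1), in 0.0916% of all genes and in 0.074% of all windows. The related element TGACGTGG occurred in none of the 7, in 2 of the 19 (HYOU1 and SSR3), in 0.78% of all genes and in 0.612% of all windows. These are matches of letters, not sites of binding. At shares this low, a count of none in 7 genes says little. FKBP10 and FKBP14, the ER members that fell in both lines, were not matched and could not be counted.

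Levels were compared between genes as CPM (a library's counts scaled to a common total after TMM) per kilobase of merged exon. FKBP10, a collagen chaperone of the ER, had the highest level in each group, with 106.5 ± 2.58 CPM per kb (SD, n = 3) in A375 etoposide and 153.0 ± 6.58 in SK-MEL-28 etoposide. FKBP1A followed with 95.1 ± 6.16 in A375 etoposide and 91.9 ± 1.24 in SK-MEL-28 etoposide, and it made up 29.9% of the family's summed level per length on average over the 12 libraries. Next came FKBP2 (29.6 ± 2.43 and 23.3 ± 3.78), FKBP4 (17.6 ± 0.845 and 20.2 ± 1.04), FKBP9 (17.4 ± 0.863 and 20.8 ± 0.213) and FKBP3 (14.3 ± 0.826 and 14.8 ± 1.37). FKBP11 (7.66 ± 0.974 and 8.91 ± 0.717) and FKBP14 (4.92 ± 0.495 and 8.20 ± 0.669) were lower. FKBP1B and FKBP5 stood last, at 1.86 ± 0.386 and 0.770 ± 0.0536 CPM per kb in A375 etoposide and 2.29 ± 0.166 and 0.689 ± 0.0338 in SK-MEL-28 etoposide.

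Some neighbours in this order could not be separated. FKBP4 and FKBP9 overlapped in A375 etoposide, and FKBP2, FKBP9 and FKBP4, as well as FKBP11 and FKBP14, overlapped along the order in SK-MEL-28 etoposide. The place of FKBP1A depends on the length used. Per kb of the longest transcript, FKBP1A (159.5 ± 10.3) and FKBP10 (158.7 ± 3.84) overlapped in A375 etoposide. By that length FKBP1A led without overlap in A375 etoposide + rapamycin (154.4 ± 3.09 against 144.8 ± 2.33), and FKBP10 led in both SK-MEL-28 groups. Per kb of coding sequence FKBP1A led in all 4 groups, with 893.6 against 232.5 in A375 etoposide.

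**Figure D1:**
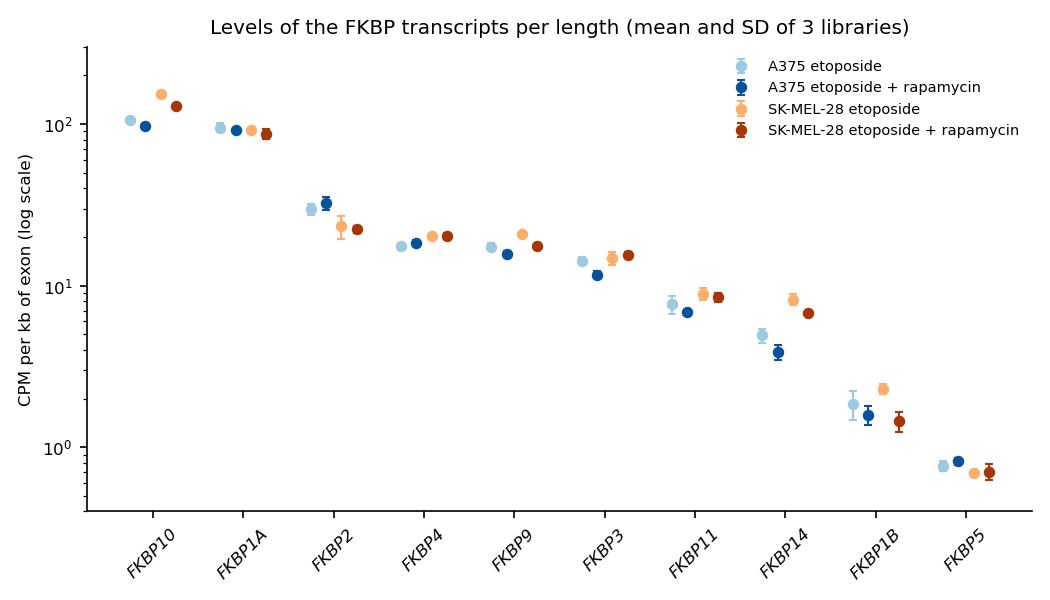
Level of each FKBP transcript in CPM per kb of merged exon (log axis), by group, with points for the mean and bars for the SD of 3 libraries. FKBP10 and FKBP1A lie highest, between 86.9 and 153.0 CPM per kb, and FKBP5 is lowest in all 4 groups, between 0.689 and 0.821.

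The melanoma label of the cells was checked against marker genes of the melanocyte lineage and of other cell types. Which line a library came from was taken from the labels and was not tested. SOX10, a factor of the melanocyte lineage, was the most abundant of 8 melanocyte markers in all 12 libraries (165.7 to 579.1 CPM), and S100B ranged from 56.8 to 106.5 CPM. The pigment genes were close to absent, with TYR at 0 counts in 8 libraries and at most 6 counts in the others, and PMEL and MLANA at no more than 2.99 and 1.37 CPM. Defining markers of other cells were at or near 0, with at most 18 counts of PTPRC and 7 of CD3E (leukocytes), 8 of KRT5 (keratinocytes) and 28 of CDH5 (endothelium). Other markers of such cells were detected, with KRT14 at 4.84 to 9.995 CPM, CD68 at 19.6 to 52.03, PECAM1 at 1.27 to 6.10, and the fibroblast markers PDGFRB at 11.2 to 21.2 and LUM at 3.93 to 28.9.

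The first question was whether rapamycin altered the transcripts of the family that binds it. In A375, 3 of the 10 genes passed an adjusted p of 0.05 (Benjamini-Hochberg, from the quasi-likelihood F test of edgeR), against 28.1% of all 18844 genes tested, and each was lower with rapamycin (FKBP3, FKBP10 and FKBP14), where 13.8% of all genes were lower and 14.3% higher. In SK-MEL-28, 4 of the 10 passed, against 19.0% of 18897 genes, and each was again lower (FKBP1B, FKBP9, FKBP10 and FKBP14), where 10.1% of all genes were lower and 8.83% higher. FKBP10 and FKBP14 fell in both lines, which is 2 of the 3 called in A375 and 2 of the 4 in SK-MEL-28, where over all genes tested in both lines 39.0% of those that fell in A375 and 54.0% of those that fell in SK-MEL-28 fell in the other line too. None of the 10 rose. The A375 count rested on single libraries and was 0 without etoposide replicate 3 or etoposide + rapamycin replicate 3, 1 without etoposide replicate 2 or etoposide + rapamycin replicate 1, and 2 without etoposide + rapamycin replicate 2, while that of SK-MEL-28 was 3 or 4 without each library. With 10 genes the counts are a description, and nothing particular to the family is read from them.

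The changes were small. In A375 no gene of the family, and among SK-MEL-28 libraries 1 (FKBP1B), also exceeded a fold change of 1.5, the threshold of the study's methods, against 5.89% and 4.99% of all genes. The median log2 fold change of the 10 was -0.13 for A375 and -0.08 for SK-MEL-28, beside -0.01 and 0.01 over all genes. The libraries with and without rapamycin did not overlap for 3 genes of the family in A375 cells and 4 in SK-MEL-28 cells, while 42.6% and 35.9% of all genes tested did not overlap. Scaled by library totals instead of TMM, 2213 genes rose and 3364 fell in A375, against 2691 and 2604, and 1337 rose and 2379 fell in SK-MEL-28, against 1668 and 1914. The 7 calls of the family held under that scaling. In bulk RNA, a lower level per cell and a smaller share of cells that carry the transcript cannot be told apart.

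**Figure D2:**
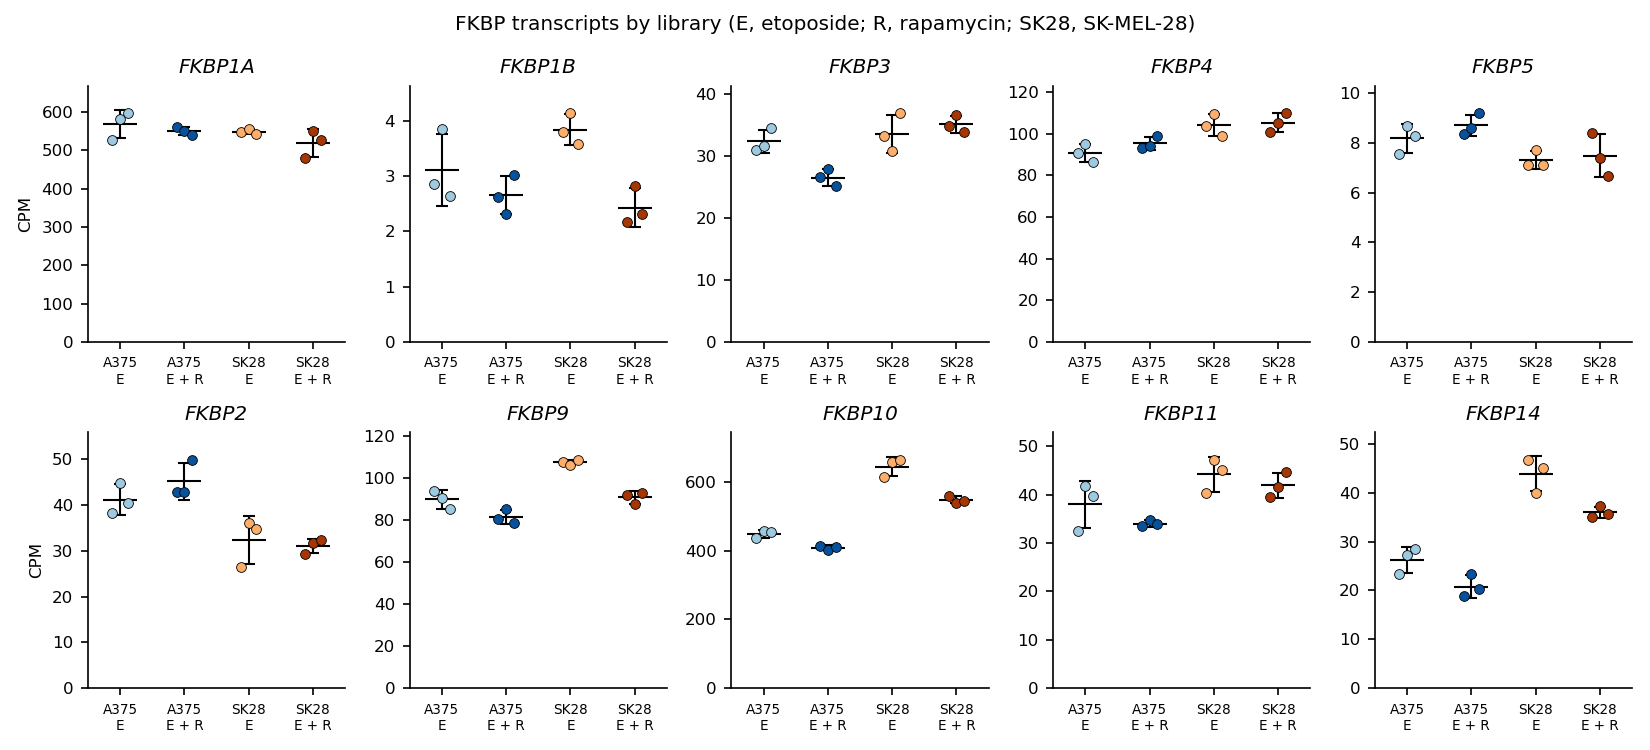
CPM of each FKBP transcript in each library (points), with the mean and SD of the 3 libraries of a group (bars), and vertical axes that start at 0 and differ between genes. FKBP10 and FKBP14 are lower with rapamycin in both lines without overlap, whereas the FKBP1A groups overlap in both.

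FKBP1A, the receptor gene, showed no detectable change. In A375 it had 526.6, 582.0 and 596.3 CPM with etoposide and 560.9, 551.1 and 538.9 with etoposide + rapamycin. SK-MEL-28 libraries had 547.0, 556.9 and 542.4 CPM and then 480.6, 550.6 and 525.6. The groups overlapped in both lines. The log2 fold change was -0.04 ± 0.05 (SE, adjusted p = 0.59, 95% interval -0.15 to 0.07) in A375 and -0.08 ± 0.05 (adjusted p = 0.302, -0.20 to 0.03) in SK-MEL-28, so that a fall of more than about 0.20 on the log2 scale lay outside both intervals.

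FKBP1B encodes FKBP12.6, a close relative of FKBP12 best known from the cardiac ryanodine receptor, and was barely expressed, at 67 to 125 counts per library. In SK-MEL-28 it had 3.79, 4.14 and 3.59 CPM with etoposide and 2.16, 2.82 and 2.31 with rapamycin, every rapamycin library below every other. It fell by 0.66 on the log2 scale (SE 0.18, adjusted p = 0.0215), the largest change of the family. This call was lost without etoposide replicate 1 (adjusted p = 0.0516) or 2 (0.0752), or without etoposide + rapamycin replicate 1 (0.0746) or 3 (0.074), and with the filter of 1 count in any library (0.057). In A375 it had 2.85, 3.85 and 2.63 CPM and then 2.63, 2.32 and 3.02, which overlap, and the log2 fold change was -0.22 ± 0.21 (adjusted p = 0.478). It also shared its locus with MFSD2B, which overlaps it on the same strand. In SK-MEL-28 MFSD2B was at 0.316 ± 0.190 CPM (SD) with etoposide and 0.641 ± 0.201 with rapamycin. Its log2 fold change there was 1.00 ± 0.51 (adjusted p = 0.202), and in A375 0.40 ± 0.78 (adjusted p = 0.755). Whether the division of reads between these names changed FKBP1B was not tested.

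FKBP3, which encodes the nuclear protein FKBP25, a tight binder of rapamycin that also binds nucleic acids, fell in A375. It went from 31.0, 31.6 and 34.5 CPM with etoposide to 26.5, 27.8 and 25.1 with rapamycin, without overlap, and fell by 0.28 on the log2 scale (SE 0.08, adjusted p = 0.0149). Leaving out etoposide replicate 3 or etoposide + rapamycin replicate 3 ended this call, with adjusted p-values of 0.062 and 0.0583. In SK-MEL-28 the libraries had 33.2, 30.7 and 36.9 CPM and then 34.9, 36.6 and 33.9, with a log2 fold change of 0.06 ± 0.08 (adjusted p = 0.644). The end of FKBP3 overlaps that of PRPF39 on the other strand, and PRPF39 also fell in A375, by 0.27 (SE 0.09, adjusted p = 0.0347). The sources used here do not say whether strand was used in counting.

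FKBP4 and FKBP5 encode FKBP52 and FKBP51, co-chaperones of HSP90 that act on steroid receptors in opposite senses. FKBP4 had 90.5, 95.03 and 86.3 CPM in A375 with etoposide and 93.1, 94.3 and 98.9 with rapamycin, and 103.6, 109.6 and 98.9 and then 100.6, 105.2 and 109.7 in SK-MEL-28. Its log2 fold change was 0.08 ± 0.05 (adjusted p = 0.284, 95% interval -0.03 to 0.19) in A375 and 0.01 ± 0.06 (adjusted p = 0.908, -0.11 to 0.14) in SK-MEL-28. FKBP5, a gene that glucocorticoids induce strongly in many tissues, had 7.57, 8.70 and 8.29 CPM and then 8.37, 8.62 and 9.20 in A375. In SK-MEL-28 it had 7.13, 7.74 and 7.11 CPM and then 8.39, 7.40 and 6.66. Its log2 fold change was 0.10 ± 0.11 (adjusted p = 0.573) in A375 and 0.03 ± 0.13 (adjusted p = 0.91) in SK-MEL-28, with intervals reaching from -0.15 to 0.34 and from -0.25 to 0.30. Neither gene passed the test in either line, and all groups overlapped.

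Of the 5 ER members, FKBP10 and FKBP14 fell in both lines. FKBP10 encodes FKBP65, which helps to fold and cross-link collagen. It had 436.0, 455.8 and 453.8 CPM in A375 with etoposide and 414.9, 401.9 and 410.5 with rapamycin, and fell by 0.13 on the log2 scale (SE 0.04, adjusted p = 0.0349). The A375 call was lost when any library other than etoposide replicate 1 was left out, with adjusted p-values from 0.0768 to 0.137, and with the filter of 1 count in any library (0.0684). In SK-MEL-28 it went from 612.6, 656.6 and 663.7 CPM to 558.3, 538.6 and 545.5, and fell by 0.24 (SE 0.05, adjusted p = 0.00306), a call that held without each library. The groups were apart in both lines.

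FKBP14 encodes FKBP22, another ER isomerase that acts on collagens. A375 libraries had 23.3, 27.2 and 28.4 CPM with etoposide and 18.8, 23.3 and 20.2 with rapamycin, the highest rapamycin library just under the lowest etoposide library. It fell by 0.33 (SE 0.10, adjusted p = 0.0281). Without etoposide replicate 2 or 3, or etoposide + rapamycin replicate 1 or 3, the adjusted p was 0.0822, 0.104, 0.115 and 0.0882, and it was 0.0843 with the filter of 1 count in any library. SK-MEL-28 libraries had 46.7, 39.8 and 44.99 CPM and then 35.0, 37.3 and 35.7, a fall of 0.29 (SE 0.07, adjusted p = 0.0122), which did not pass without etoposide replicate 3 (adjusted p = 0.0615).

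FKBP9, an ER member with several isomerase domains, fell in SK-MEL-28. There it had 107.5, 106.4 and 108.6 CPM with etoposide and 92.0, 87.4 and 92.9 with rapamycin, and fell by 0.25 (SE 0.05, adjusted p = 0.00373), a call that held without each library. In A375 the values were 94.0, 90.6 and 85.2 CPM and then 80.4, 85.3 and 78.7, groups that overlap by 1 library, and the log2 fold change of -0.14 ± 0.05 did not pass (adjusted p = 0.0759). It passed there under scaling by library totals (adjusted p = 0.0238) and in 1 fit of all 12 libraries (0.0442).

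The remaining ER members did not pass. FKBP2, a small soluble isomerase, had 38.2, 44.9 and 40.4 CPM and then 42.9, 42.8 and 49.8 in A375 (log2 fold change 0.14 ± 0.08, adjusted p = 0.213). In SK-MEL-28 it had 26.4, 36.1 and 34.7 CPM and then 29.3, 31.6 and 32.3 (-0.06 ± 0.10, adjusted p = 0.728). FKBP11, anchored in the ER membrane and abundant in secretory cells, had 32.5, 41.7 and 39.6 CPM and then 33.4, 34.7 and 34.0 in A375 (-0.15 ± 0.09, adjusted p = 0.217). Without etoposide replicate 1, the only etoposide library under those with rapamycin, FKBP11 passed in A375 (log2 fold change -0.25, adjusted p = 0.0201). In SK-MEL-28 FKBP11 had 40.2, 47.1 and 45.1 CPM and then 39.5, 41.5 and 44.7 (-0.08 ± 0.07, adjusted p = 0.515).

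**Figure D3:**
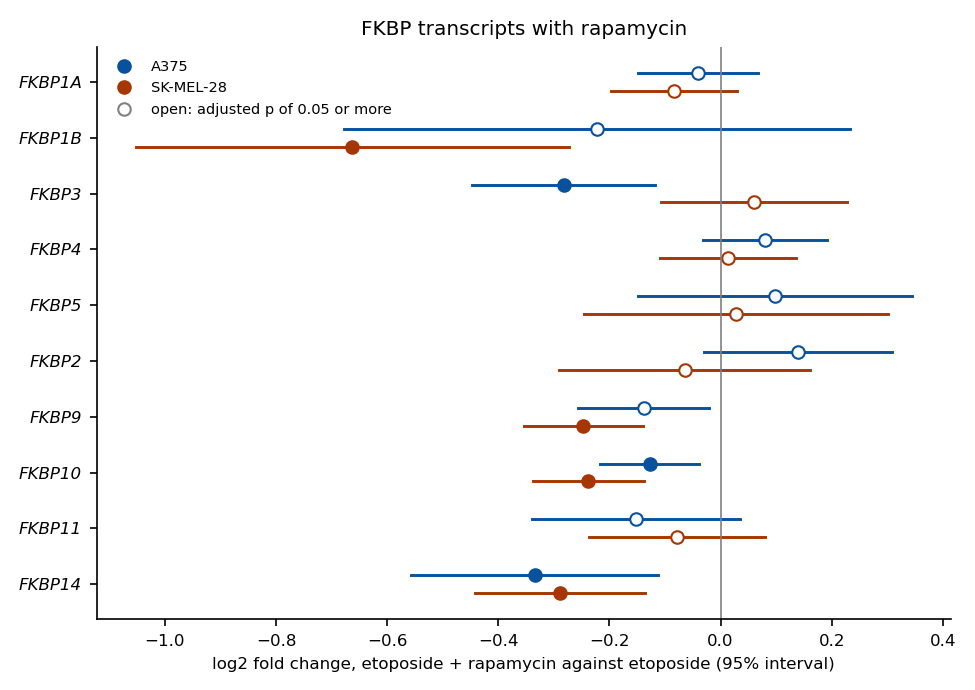
Log2 fold change of each FKBP transcript, etoposide + rapamycin against etoposide, in A375 (blue) and SK-MEL-28 (brown), with 95% intervals from edgeR and filled points where the adjusted p is under 0.05. All filled points lie below 0, and the interval of FKBP1A includes 0 in both lines.

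Whether the response differed between the lines was tested as an interaction over all 12 libraries. None of the 10 genes passed in edgeR, against 5.62% of 20101 genes, and 1 had an unadjusted p under 0.05. This was FKBP3, with a difference of 0.35 ± 0.11 on the log2 scale (SK-MEL-28 minus A375, adjusted p = 0.0626). FKBP3 passed in DESeq2 (adjusted p = 0.0414) and without SK-MEL-28 etoposide replicate 3 (adjusted p = 0.0356). For FKBP1B the difference was -0.43 ± 0.27 (adjusted p = 0.407), for FKBP9 -0.10 ± 0.07 (0.47), for FKBP10 -0.10 ± 0.06 (0.336) and for FKBP14 0.05 ± 0.13 (0.864). A call in 1 line and not in the other is therefore not shown to differ between the lines for any member by this test.

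The lines also differed from each other in the family, which was tested once with etoposide and once with etoposide + rapamycin. These comparisons use the same libraries as those above. With etoposide, 5 of the 10 genes passed, against 31.7% of 19025 genes, and with etoposide + rapamycin 7 passed, against 40.4% of 18817. FKBP14 alone exceeded a fold change of 1.5 in each, where 13.0% and 14.9% of all genes did. It was 1.67-fold higher in SK-MEL-28 with etoposide (log2 0.74 ± 0.09, adjusted p = 3.1e-05) and 1.73-fold higher with rapamycin (0.79 ± 0.08, adjusted p = 6.1e-06). FKBP10 was also higher in SK-MEL-28, by 0.52 ± 0.05 (adjusted p = 2.7e-06) and 0.42 ± 0.04 (adjusted p = 1.8e-06). FKBP9 was higher by 0.26 ± 0.05 (adjusted p = 0.0027) and 0.15 ± 0.05 (0.0313).

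FKBP2 went the other way, lower in SK-MEL-28 by a log2 fold change of -0.34 ± 0.11 with etoposide (adjusted p = 0.0256) and -0.54 ± 0.07 with rapamycin (adjusted p = 5.0e-05). FKBP3 and FKBP11 passed with rapamycin (0.40 ± 0.07, adjusted p = 0.00036, and 0.30 ± 0.06, adjusted p = 0.00201) and not with etoposide (0.06 ± 0.08, adjusted p = 0.654, and 0.22 ± 0.09, adjusted p = 0.0951). FKBP4 was higher in SK-MEL-28 by 0.20 ± 0.06 (adjusted p = 0.0201) and 0.14 ± 0.05 (0.0454), the latter a call lost in DESeq2 (adjusted p = 0.0564), with the filter of 1 count in any library (0.0911) and in 1 fit of all libraries (0.0502). FKBP1A (-0.05 ± 0.05 and -0.09 ± 0.05), FKBP1B and FKBP5 did not pass in either comparison.

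Several of these calls rested on single libraries. With etoposide, FKBP2 was lost without A375 replicate 2 or 3 or SK-MEL-28 replicate 1 (adjusted p = 0.0985, 0.0531 and 0.0741), and with the filter of 1 count in any library (0.0901). FKBP4 was lost without A375 replicate 3 or SK-MEL-28 replicate 2 (0.0961 and 0.0778), and FKBP11 was gained without A375 replicate 2 (0.0463). With rapamycin, FKBP4 was lost without A375 replicate 1 or 2 or SK-MEL-28 replicate 2 or 3 (0.145, 0.127, 0.0701 and 0.165). FKBP9 was lost there without A375 replicate 1 or 3 or SK-MEL-28 replicate 1 or 3 (0.0885, 0.107, 0.0698 and 0.0984), and with that filter (0.064), and FKBP1A was gained without SK-MEL-28 replicate 2 (log2 -0.13, adjusted p = 0.0379).

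**Figure D4:**
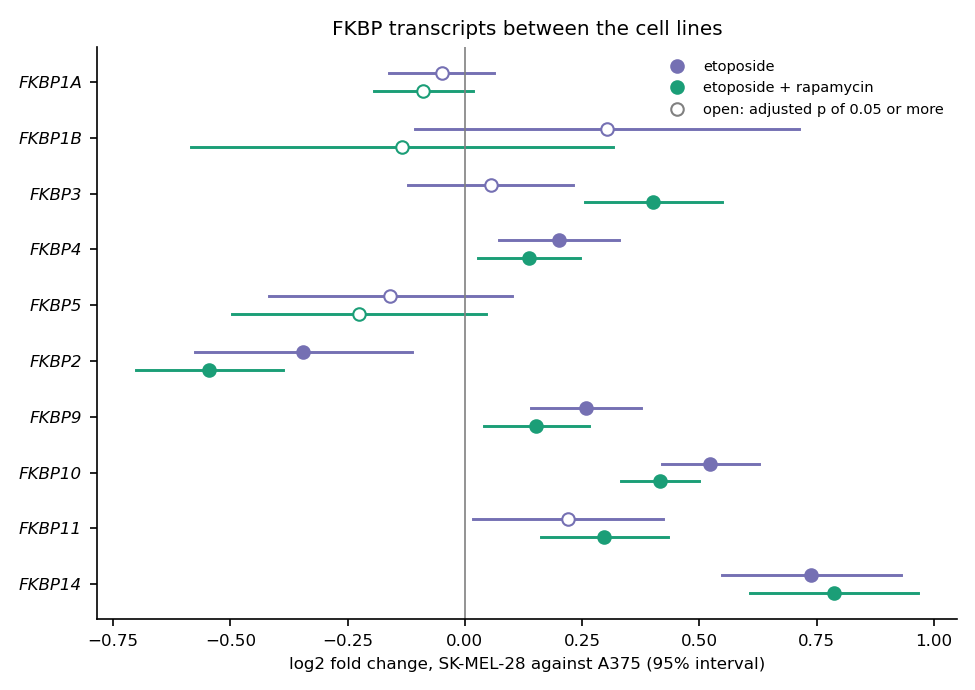
Log2 fold change of each FKBP transcript, SK-MEL-28 against A375, with etoposide (purple) and with etoposide + rapamycin (green), with 95% intervals from edgeR and filled points where the adjusted p is under 0.05. FKBP14 and FKBP10 lie farthest above 0 and FKBP2 farthest below, with the same sign under both treatments.

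Genes of the same compartments and pathways were then described beside the family. Their counts are to be read beside the shares of all genes, of which 13.8% fell and 14.3% rose in A375 cells, while 10.1% fell and 8.83% rose in SK-MEL-28 cells. Of 20 ER chaperone and other genes of the unfolded protein response, 14 fell and none rose in A375 (median log2 fold change -0.29), and 15 fell and none rose in SK-MEL-28 (median -0.37). All 14 that fell in A375 also fell in SK-MEL-28, as did 39.0% of all genes that fell in A375. CALR, the calcium-binding chaperone calreticulin and the most abundant of the list, went from 1088 ± 47.8 CPM (SD, n = 3) to 841.7 ± 16.4 in A375 and from 1314 ± 34.6 to 909.4 ± 22.1 in SK-MEL-28, falling by 0.36 (SE 0.04, adjusted p = 7.7e-05) and 0.53 (SE 0.04, adjusted p = 2.0e-06). HSPA5 went from 972.9 ± 2.07 to 708.1 ± 3.70 CPM in A375 and from 1107 ± 15.5 to 723.2 ± 24.8 in SK-MEL-28. HSP90B1, the ER form of HSP90, fell by 0.57 in A375 and 0.56 in SK-MEL-28, and HYOU1, an ER exchange factor, by 0.26 and 0.57. XBP1, DNAJB9, SDF2L1, SEC61B and SYVN1 did not pass in either line.

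Procollagen processing genes, the functional partners of FKBP10 and FKBP14, gave a mixed picture. Of 21 genes, 8 fell and 4 rose in A375 (median -0.12), and 12 fell and 1 rose in SK-MEL-28 (median -0.19). The count that rose in A375 was 1 under scaling by library totals and 1 to 3 without each library, lowest without etoposide replicate 2 or 3 or etoposide + rapamycin replicate 3. The count that fell in SK-MEL-28 was 7 to 11 without each library, lowest without etoposide replicate 3 or etoposide + rapamycin replicate 3. All 8 that fell in A375 also fell in SK-MEL-28 (39.0% over all genes), among them the prolyl 4-hydroxylase subunits P4HA1, P4HA2 and P4HB and the lysyl hydroxylases PLOD1 and PLOD2. P4HB went from 901.4 ± 11.9 to 746.8 ± 22.7 CPM in A375 and from 1128 ± 9.55 to 759.8 ± 17.2 in SK-MEL-28. PLOD2, whose product FKBP65 binds, fell by 0.79 (SE 0.07) in A375 and 0.65 (SE 0.05) in SK-MEL-28, and P4HA2 fell by 0.72 (SE 0.07) in SK-MEL-28 and 0.22 (SE 0.05) in A375. CRTAP, a subunit of the prolyl 3-hydroxylase complex, rose by 0.16 (SE 0.04) in each line. The response differed between the lines by the interaction test for 5 of the 21, where 5.62% of all genes passed. COLGALT1 (0.17 ± 0.04 in A375 and -0.17 ± 0.05 in SK-MEL-28) and P3H2 (0.19 ± 0.06 and -0.61 ± 0.09) were among them. Other lists held such genes too. In the unfolded protein response list 1 of 20 passed above 0 and 2 below. In the glucocorticoid list described below, 3 of 18 passed above 0 and 2 below. Of the cyclophilins and parvulins below 1 of 18 passed, and of the melanocyte markers 2 of 7. No gene of the HSP90 list or of the FKBP12 partner list passed.

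Fibroblast markers stood beside these collagen genes. Their summed level was 20.8 ± 1.03 CPM in A375 with etoposide and 19.6 ± 1.51 with rapamycin, and 42.5 ± 3.18 and 36.1 ± 0.850 in SK-MEL-28, overlapping in A375 and apart in SK-MEL-28. The most abundant was PDGFRB or, in SK-MEL-28 with etoposide, LUM, a collagen-binding proteoglycan, and none of the 4 markers was at 0 counts in any library. LUM fell in both lines, by 0.73 (SE 0.16, adjusted p = 0.00502) and 0.66 (SE 0.11, adjusted p = 0.000806), whereas PDGFRB was at 11.6 ± 0.324 CPM with etoposide and 14.2 ± 2.07 with rapamycin in A375 (adjusted p = 0.0792) and at 14.8 ± 1.36 and then 18.7 ± 2.22 in SK-MEL-28 (adjusted p = 0.0526), apart in both lines but without passing. COL1A1, at 14 to 72 counts, was at 1.68 ± 0.0858 CPM and then 0.891 ± 0.428 in A375 (adjusted p = 0.0649) and at 1.84 ± 0.487 and then 0.970 ± 0.360 in SK-MEL-28 (adjusted p = 0.066), apart in both lines without passing, and COL3A1 never exceeded 11 counts. CD68, a marker of macrophages that other cells also carry, rose in both lines (0.53, SE 0.17, adjusted p = 0.0314, and 0.64, SE 0.20, adjusted p = 0.0384), beside at most 18 counts of PTPRC. The endothelial markers PECAM1 and CDH5 summed to 4.85 to 6.52 CPM with etoposide and 3.84 to 4.20 with rapamycin in A375, and to 2.58 to 2.98 and 1.53 to 1.82 in SK-MEL-28, without overlap in either line, and PECAM1 fell in SK-MEL-28 by 0.70 (SE 0.23, adjusted p = 0.0488). The keratinocyte markers summed to 6.59 to 7.87 CPM and 4.93 to 6.27 in SK-MEL-28, also apart, and overlapped in A375, and KRT14 passed in neither line. MITF, a melanocyte marker, fell in both lines, by 0.51 (SE 0.10, adjusted p = 0.00248) and 0.50 (SE 0.10, adjusted p = 0.0032), and S100B and DCT fell in A375, by 0.58 (SE 0.06) and 1.70 (SE 0.43, from 0.714 to 0.216 CPM), so that 3 of the 7 melanocyte markers tested fell there (median -0.48) and 1 of 7 in SK-MEL-28 (median -0.23). Their sum, which is mostly SOX10, overlapped between treatments in both lines, and SOX10 did not pass (adjusted p = 0.572 and 0.543). The part of any of these markers in the results was not tested.

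HSP90 and its co-chaperones, the partners of FKBP4 and FKBP5, had medians near 0. Of 18 genes, 3 rose and 3 fell in A375 (median 0.01), together 6 where 28.1% of all genes were called, and none rose and 2 fell in SK-MEL-28 (median -0.01), where 19.0% were. The falls depended on single libraries, with 1 left in A375 when any 1 etoposide + rapamycin library was left out, and 0 or 1 in SK-MEL-28 when any library was, 0 without etoposide replicate 1 or etoposide + rapamycin replicate 3. HSP90AB1, the most abundant, had 1267 ± 28.2 CPM with etoposide and 1287 ± 42.1 with rapamycin in A375, and 1372 ± 55.5 CPM and 1399 ± 27.4 CPM in SK-MEL-28. HSPA4, an exchange factor of HSP70, fell in both lines, by 0.34 (SE 0.04) and 0.22 (SE 0.06). In A375, STUB1, a chaperone-bound ubiquitin ligase, rose by 0.23 (SE 0.05, adjusted p = 0.00734), CDC37, which brings kinases to HSP90, rose by 0.20 (SE 0.05, adjusted p = 0.00719), and DNAJB1 fell by 0.15 (SE 0.04, adjusted p = 0.0163). PPID, a cyclophilin that binds HSP90, fell in SK-MEL-28 by 0.25 (SE 0.07, adjusted p = 0.0283).

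Glucocorticoid-response genes, a list that FKBP5 belongs with by its regulation, moved in both directions. Of 18 tested (ZBTB16 was not), 3 rose and 5 fell in A375 (median -0.10), and 3 rose and 7 fell in SK-MEL-28 (median -0.11). The 7 in SK-MEL-28 became 3 without etoposide replicate 3 and 4 without etoposide + rapamycin replicate 3. The receptor gene NR3C1 did not pass in either line, at -0.02 ± 0.07 (adjusted p = 0.857) and -0.08 ± 0.07 (0.474). CDKN1C, a cell cycle inhibitor, rose by 0.55 (SE 0.11) in A375 and 0.89 (SE 0.12) in SK-MEL-28, and NFKBIA, an inhibitor of NF-kappaB, by 0.46 (SE 0.05) and 0.42 (SE 0.08). KLF9 fell by 0.68 (SE 0.05) in A375, where PDK4, which restrains pyruvate oxidation, fell by 0.64 (SE 0.10). CRISPLD2 fell by 1.72 (SE 0.16) and MAOA by 0.48 (SE 0.15) in SK-MEL-28. MT2A, a metallothionein and the most abundant of the list in A375, was at 254.7 ± 28.5 and 254.7 ± 5.95 CPM in the A375 groups and fell by 0.38 (SE 0.09) in SK-MEL-28, and ERRFI1, the most abundant in SK-MEL-28, rose there by 0.39 (SE 0.05). FKBP5 itself, as given above, did not pass in either line.

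Of 18 cyclophilins and parvulins tested, 1 rose and 2 fell in each line. PPIA, cyclophilin A, the receptor of cyclosporin, had 813.7 ± 64.6 CPM with etoposide and 775.7 ± 13.9 with rapamycin in A375, and 865.8 ± 15.8 CPM and then 801.1 ± 55.2 in SK-MEL-28, without passing (adjusted p = 0.426 and 0.136). PPIB, the cyclophilin of the ER and part of the prolyl 3-hydroxylase complex, was the member that fell in both lines, by 0.29 (SE 0.07, adjusted p = 0.00698) and 0.45 (SE 0.05, adjusted p = 3.5e-05). PPIC fell (0.28, SE 0.07) and PPIL2 rose (0.21, SE 0.06) in A375, and PPWD1 rose by 0.33 (SE 0.08) in SK-MEL-28.

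Among further genes with FKBP domains, FKBP15, which associates with endosomes and actin, fell in SK-MEL-28 (-0.26 ± 0.05, adjusted p = 0.00246). FKBP8, an anchored member of the outer mitochondrial membrane and the most abundant of those given here, did not pass, with 221.2 ± 2.36 and 231.4 ± 18.0 CPM in A375 and 235.9 ± 14.3 and then 219.3 ± 4.05 CPM in SK-MEL-28. FKBP6, FKBP7, FKBPL and FKBP1C had group means of 0.805 to 5.29 CPM and did not pass.

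Of 18 genes for proteins that FKBP12 or FKBP12.6 bind, alone or with a drug, none fell and 3 rose in A375 (median -0.02), and 1 fell and 2 rose in SK-MEL-28 (median -0.07). The rises were few and unstable, with 0 left in A375 without etoposide replicate 2 or 3 or etoposide + rapamycin replicate 2 or 3. ITPR3, an inositol trisphosphate receptor and the most abundant, rose in A375 by 0.24 (SE 0.07, adjusted p = 0.0171), as did the ryanodine receptor gene RYR2 by 0.27 (SE 0.09, adjusted p = 0.0466). In SK-MEL-28 the activin receptor gene ACVR1 rose by 0.24 (SE 0.07, adjusted p = 0.0406) and ITPR1 fell by 0.35 (SE 0.08, adjusted p = 0.011). MTOR, the target of the drug and FKBP12 together, did not pass in either line, with log2 fold changes of 0.12 ± 0.06 (adjusted p = 0.156) and -0.11 ± 0.06 (0.264).

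**Figure D5:**
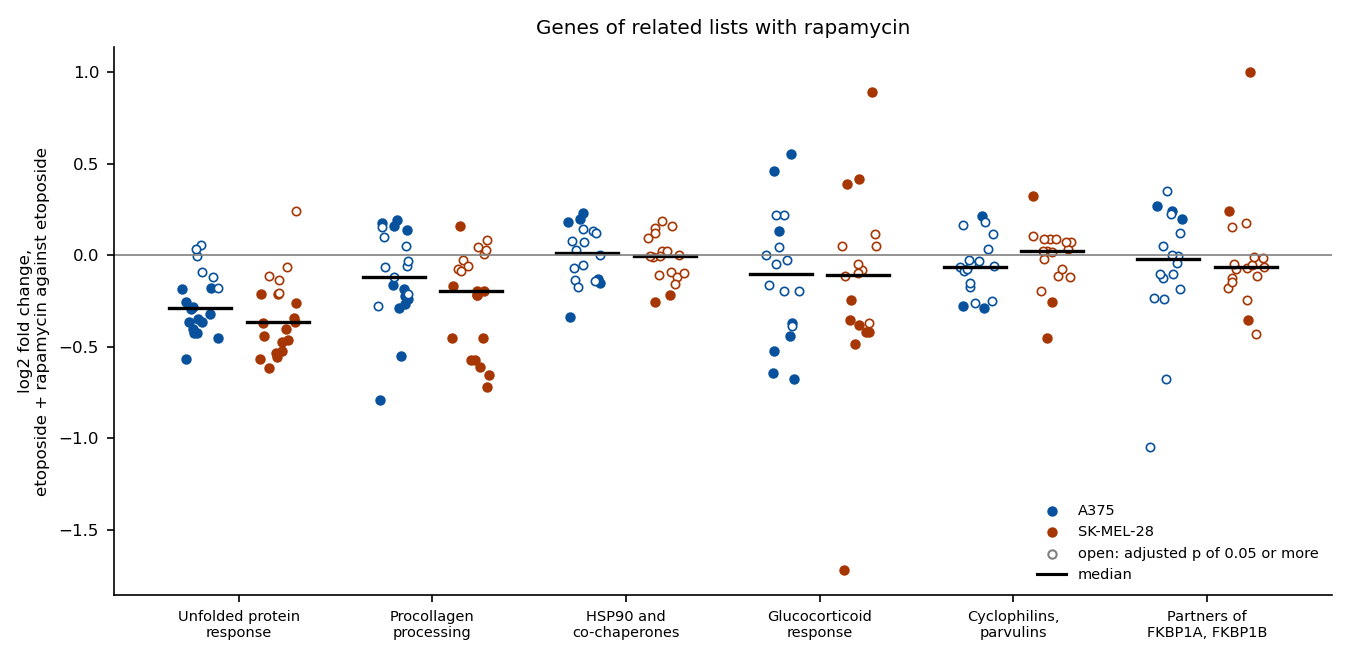
Log2 fold change of each tested gene of 6 lists, etoposide + rapamycin against etoposide, in A375 (blue) and SK-MEL-28 (brown), with filled points where the adjusted p is under 0.05 and a black bar at the list's median. The unfolded protein response genes have the lowest medians, -0.29 and -0.37, and the HSP90 list lies around 0 in both lines.

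Finally, the genes whose levels were most like those of FKBP1A and FKBP5 were found among 12319 genes, by Pearson's correlation of log2 CPM over the 12 libraries after the mean of each cell line was taken away. For FKBP1A these were PPIA (r = 0.95), S100A11 (0.932) and TIMM23 (0.896). For FKBP5 they were FBXO5 (0.873), B3GNT7 (0.846) and POLR3K (0.824). The libraries share depth, treatment and preparation, and these values describe likeness in these 12 libraries with no test.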

How the data were processed

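RNA of 12 polyA-enriched libraries was sequenced on an Illumina instrument. The authors mapped clean reads to GRCh38 (hg38) with HISAT2, estimated expression per gene with StringTie, and deposited raw counts per gene and library, without normalization or pooling. How these estimates became counts is not given in the sources used here, so a count need not be 1 read and precision is given by the spread between libraries. No column belonged to another sample (0). Rows that name no gene (5 of 58312) were left out, having between 0.000991% and 0.00529% of all counts in each library. Gene positions and lengths came from GENCODE (28176 rows matched by identifier, 19590 by name, 10541 not). Depth was 28189501 to 32499337 counts.

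Tests used edgeR 4.0.16 in R 4.3.3 (filterByExpr with a minimum count of 10, TMM, glmQLFit and glmQLFTest, p-values adjusted by Benjamini-Hochberg over the whole table), each pair of groups fitted alone and the interaction over 12 libraries. Positive values mean more RNA with rapamycin, or in SK-MEL-28. Each standard error (SE) was taken from the fold change and its F statistic, as |log2 fold change| over √F. The scripts were tested on simulated data. Replicates of a group differed by more than sampling noise.

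The members and gene lists were chosen with earlier results of these data known. Named were the 10 members, further FKBP genes (1 is not reported here), and of each list and line the gene with the highest mean count and the 2 genes per direction with the largest called change at a mean of at least 100 counts, plus the 3 genes most like FKBP1A and FKBP5; other genes were named after their values were seen. Alternatives were DESeq2 1.42.0, scaling by its size factors or by library totals, a filter asking for 1 count in any library or for 10 counts in every one, 1 fit of all libraries, a replicate block, counts halved and rounded, the fold change threshold, a test against that fold change, other gene lengths, and each library left out.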

Additional observations from a re-analysis of the deposited data

How the results depend on the processing

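Counts of FKBP genes past the adjusted p held within 1.5 times of the value reported, with these exceptions. Required to exceed a fold change of 1.5 as well, the count was 0 in A375, 1 in SK-MEL-28 and 1 in each comparison of the lines, and a test against that fold change left 0 in all of them. The filter of 1 count in any library left 1 in A375, where 39259 genes were tested. For the difference of response between the lines, DESeq2 called 1 gene (FKBP3) where edgeR called 0. Leaving out each library gave 0 to 4 genes in A375, 3 to 4 in SK-MEL-28, 0 to 1 for the difference, 3 to 5 for the lines with etoposide and 5 to 7 with etoposide + rapamycin. The share of FKBP1A in the family's summed level was 29.9%, 32.4% per longest transcript and 59.1% per coding length, and 29.6% to 30.3% without each library.

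Some log2 fold changes that passed under no setting turned sign. In SK-MEL-28, FKBP4 was -0.021 and FKBP5 -0.0060 under library totals. Without each library in turn, the range in SK-MEL-28 was -0.19 to 0.019 for FKBP2, -0.00029 to 0.14 for FKBP3, -0.020 to 0.051 for FKBP4 and -0.059 to 0.11 for FKBP5. For the difference of response it was -0.078 to 0.0196 for FKBP1A, -0.15 to 0.017 for FKBP5 and -0.016 to 0.15 for FKBP14, and for FKBP3 between the lines with etoposide -0.013 to 0.12. The cause was not tested.

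Over all genes, the difference of response was called for 534 genes above and 596 below 0 in edgeR, against 687 and 1012 in DESeq2, 279 and 379 with the filter of 1 count and 283 and 337 with the replicate block. Called list genes without each library fell between 13 and 15 for the unfolded protein response in either line, and between 7 and 11 lower procollagen genes in SK-MEL-28, against 12. Lists with up to 4 calls in a direction had between 0 and 4 over the alternatives.

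Samples with the same replicate number did not deviate together (correlations of -0.0298 to 0.0209), and not every sample was closest to its own number, so the numbers do not pair the samples. With the replicate block, 2, 4, 0, 6 and 7 FKBP genes passed in the 5 comparisons in the order above. FKBP10 was lost in A375 (adjusted p = 0.0977) and FKBP11 was gained between the lines with etoposide (adjusted p = 0.0224). Depth limits FKBP1B most, at 67 to 125 counts per library.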

Other observations

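The genes next to the FKBP genes were looked at after the values above were seen. P3H4, a gene of the procollagen processing list above, lies head to head with FKBP10, 76 bases away on the other strand. In A375 P3H4 rose by 0.14 on the log2 scale (SE 0.05, adjusted p = 0.0426 in edgeR), from 72.2 ± 0.947 CPM (SD, n = 3) to 79.3 ± 2.30, while FKBP10 fell by 0.13 there. In SK-MEL-28 P3H4 was at 76.8 ± 5.19 and 75.6 ± 2.11 CPM (adjusted p = 0.81), and FKBP10 fell by 0.24. PLEKHA8 lies 702 bases from FKBP14 on the other strand and fell with it in A375, by 0.29 (SE 0.08, adjusted p = 0.0236), from 26.0 ± 1.67 to 21.2 ± 1.22 CPM, whereas in SK-MEL-28 it went from 29.0 ± 3.07 to 25.6 ± 0.196 CPM without passing (adjusted p = 0.16). ARF3, which shares its assembled locus with FKBP11, fell in SK-MEL-28 by 0.23 (SE 0.05, adjusted p = 0.00425) and had a log2 fold change of -0.12 ± 0.05 in A375 (adjusted p = 0.0637), beside -0.08 and -0.15 for FKBP11. PPP1R14B, 347 bases from FKBP2 on the other strand, rose in A375 by 0.45 (SE 0.05, adjusted p = 9.0e-05), from 220.7 ± 10.8 to 299.7 ± 18.4 CPM, and had 193.5 ± 26.1 and then 212.8 ± 8.17 CPM in SK-MEL-28 (adjusted p = 0.289), while FKBP2 passed in neither line. VEGFB, on the other side of FKBP2, rose in SK-MEL-28 by 0.27 (SE 0.07, adjusted p = 0.0122), and NT5C3B, beside FKBP10, rose in A375 by 0.25 (SE 0.06, adjusted p = 0.00798). PRPF39 is given with FKBP3 above, and the other 6 of the 13 neighbours passed in neither line.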
